A study of Homo sapiens with 4 samples.

Results

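These expression values describe 10 genes that hold opposite ends of the epithelial state in LoVo cells, a human line that came from a colorectal adenocarcinoma. They are 5 factors of the epithelial-mesenchymal transition (EMT), ZEB1, ZEB2, SNAI1, SNAI2 and TWIST1, and 5 regulators that keep cells epithelial, GRHL2, OVOL1, OVOL2, ESRP1 and ESRP2. The 10 genes were listed by name with earlier results of these data known, no threshold on their values was used, and each was found once among the 58825 genes of the files. LoVo cells carry an uncleaved MET receptor that is active without its ligand. RNA was sequenced from 2 libraries of MET+ cells, labelled as GFP control with the wild-type genotype, and 2 libraries of MET-KO cells, in which the MET gene was knocked out with CRISPR/Cas9. The comparison asks how the loss of MET changed the balance between EMT factors and epithelial regulators. The QuantSeq kit used reads the 3' end of polyadenylated messages. All cells grew in serum-containing medium, and the MET-KO cells had been transfected with Cas9 and a GFP plasmid, selected with puromycin and picked as single clones that were chosen by Western blot. Whether both MET-KO libraries came from 1 clone is not given in the sources used here, so loss of MET and properties of a clone cannot be told apart. The libraries are labelled as biological replicates.

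EMT is the change by which epithelial cells loosen their junctions and take up a motile, mesenchymal form. ZEB, SNAI and TWIST proteins bind DNA at short E-box sequences and repress junction genes such as CDH1, which encodes E-cadherin. GRHL2 and the OVOL proteins are transcription factors that hold ZEB1 down, and ZEB1 in turn represses them. GRHL2 also switches on epithelial genes. ESRP1 and ESRP2 are splicing factors that direct epithelial forms of transcripts such as FGFR2 and CD44. The microRNAs of the miR-200 family target ZEB1 and ZEB2 messages, and ZEB proteins repress the miR-200 genes.

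Depth was similar in all libraries, with totals of 8429142 and 10286552 counts for MET+ and 10137583 and 10228991 for MET-KO. MET, the targeted gene, had 338 and 336 CPM (counts scaled by library size to a common total) in MET+ cells and 84.4 and 88.9 CPM in MET-KO cells, a log2 fold change of -1.96. Reads at the 3' end of a message do not show whether its coding sequence is intact. The libraries of the groups stood far apart. Of 13801 genes tested, 54.1% passed an adjusted p of 0.05, 27.2% as higher and 26.9% as lower in MET-KO cells, and 75.6% had groups that did not overlap in CPM. In addition, 79 genes with at least 20 counts in both MET+ libraries had 0 counts in both MET-KO libraries, and 143 genes showed the opposite pattern, of which 11 lie on chromosome Y. The keratins KRT8, KRT18 and KRT19 of simple epithelia were abundant in every library, with group means between 1183 and 6020 CPM. Of 12 colon epithelial markers, 9 were lower and 2 higher in MET-KO cells, and CDH17, GPA33, CEACAM5 and PHGR1 were at 0 counts in both MET-KO libraries. LGALS4 had 89 and 107 counts in MET+ cells against 1 and 1 in MET-KO cells, and VIL1 had 43 and 58 against 3 and 3. KRT20 went the other way, from 0 and 0 to 27 and 28 counts. The 12 colon markers summed to 9598 and 9637 CPM in MET+ and to 8242 and 7261 CPM in MET-KO cells. Most of each sum came from KRT8, KRT18 and KRT19, so it says little about the other markers. Of 7 fibroblast markers, 2 were tested and 1, COL3A1, was higher. COL3A1 had enough counts for the test in MET-KO cells alone. DCN and COL1A2 were at 0 in all 4 libraries, and the sum of the 7 markers was 2.18 and 1.64 CPM in MET+ and 3.63 and 4.33 CPM in MET-KO cells. Of 7 immune and endothelial markers, 1 was tested and not called, PTPRC, CD3E and CDH5 were at 0 throughout, and the sum was 2.18 and 2.57 CPM in MET+ and 0.686 and 0.737 CPM in MET-KO cells. These differences accompany every result that follows, and their part in them was not tested. Whether the MET-KO cells derive from the same stock of cells as the MET+ cells was not tested either, so each value below compares the libraries under these labels.

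Loss of MET was accompanied by lower RNA of 3 epithelial regulators and higher RNA of 1 EMT factor. GRHL2 and OVOL1 were nearly or entirely without counts in MET-KO cells, ESRP1 stood at 17.7% of its MET+ level, and ZEB1 was 6.86-fold higher. ESRP2 moved the other way from ESRP1 and was 1.59-fold higher. SNAI1 and OVOL2 did not pass the test, and ZEB2, SNAI2 and TWIST1 were at or near 0 counts in all libraries. In all, 5 of the 10 genes passed the test, 2 as higher and 3 as lower, and 7 of them had enough counts to be tested. With 54.1% of all tested genes called, that number by itself does not set these genes apart. GRHL2 and OVOL1 reached the filter on low counts in MET+ cells alone, so they could only enter the test by being higher there. Some genes of the lists below also entered through 1 group alone. These include VIM and RAB25 through MET+ cells and TGFB2 and COL3A1 through MET-KO cells. Their direction was fixed by entry, and the numbers called in each list include such genes. In bulk RNA, fewer cells that express a gene and less RNA per cell cannot be told apart.

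**Figure D1:**
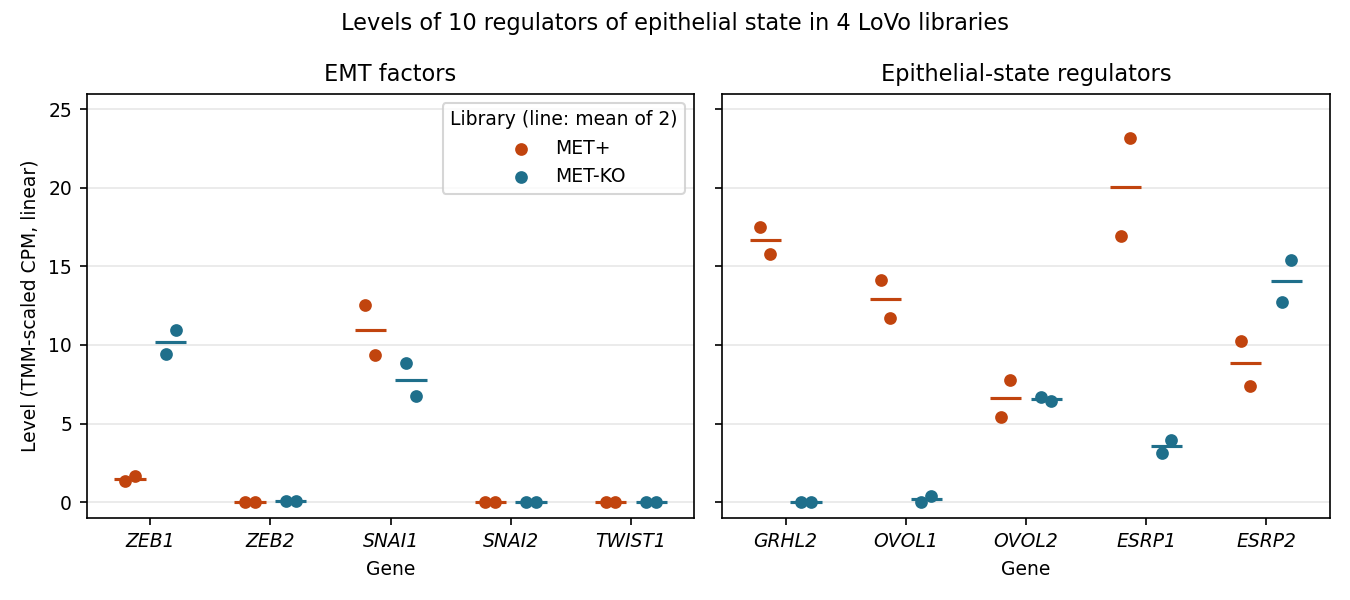
Level of each of the 10 genes in CPM on a linear axis, with 1 point for each library and a line at the mean of the 2 libraries of a group. GRHL2, OVOL1 and ESRP1 are low in both MET-KO libraries, ZEB1 and ESRP2 are higher in them, and ZEB2, SNAI2 and TWIST1 lie at or close to 0 throughout.

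ZEB1, a zinc-finger repressor of epithelial genes, had 11 and 16 counts in MET+ cells against 96 and 119 in MET-KO cells. Scaled for library size, these were 1.33 and 1.64 CPM against 9.41 and 10.96 CPM. Both MET-KO libraries lay far above both MET+ libraries. The log2 fold change was 2.76 (standard error 0.32, 95% interval 2.10 to 3.41, Benjamini-Hochberg adjusted p = 6.16e-09 in edgeR's quasi-likelihood test). ZEB1 (ENSG00000148516) lies on the plus strand of chromosome 10, from 31318495 to 31529814 in GRCh38. On the log2 scale, the median change was -0.01 over the other 537 tested genes of chromosome 10 and -0.30 over the 34 within 5 Mb of ZEB1, so its neighbourhood did not share the increase. The antisense gene ZEB1-AS1, which starts beside ZEB1 and overlaps it, had 18 and 15 counts in MET+ cells against 75 and 72 in MET-KO cells. It was also higher, by 1.92 on the log2 scale (standard error 0.34, adjusted p = 1.43e-05 by edgeR). The kit keeps the strand of the RNA, but the strand setting of the counting is not given in the sources used here, and reads over the shared stretch could have been split or left out. Across the 4 libraries, the profiles most like that of ZEB1 among tested genes whose mean log2 CPM reached 3 were those of AASS (Euclidean distance 0.0686 in log2 CPM), NR2F2 (0.165) and PTPN14 (0.196). With 4 libraries such likeness rests mainly on the step between the groups.

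ZEB2, the close relative of ZEB1, had 0 counts in both MET+ libraries and 1 count in each MET-KO library. SNAI2 and TWIST1, which repress CDH1 in many mesenchymal-like tumour cells, had 0 counts in all 4 libraries. A count of 0 allows a level of up to 0.276 to 0.363 CPM, depending on the library, so no difference was detectable for these 3 genes at this depth.

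SNAI1, a fast-turning repressor of CDH1 that often starts an EMT, was present in both groups. Its levels were 12.6 and 9.34 CPM in MET+ cells against 8.83 and 6.72 CPM in MET-KO cells. Both MET-KO libraries lay below both MET+ libraries, but the nearest values of the groups were closer than the values within either group. The log2 fold change of -0.49 (standard error 0.23, 95% interval -0.95 to -0.02) did not pass edgeR's quasi-likelihood test, with an adjusted p = 0.0702. The adjusted p was 0.0138 without MET+ replicate 2 and 0.0425 without MET-KO replicate 1 in the same edgeR test, with a log2 fold change of -0.70 in both. In MET+ cells SNAI1 was the most abundant of the EMT factors, and in MET-KO cells ZEB1 and SNAI1 had similar means, 10.2 and 7.77 CPM. QuantSeq counts reads near the 3' end of a message, so these levels need no correction for length, although priming can differ between genes.

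GRHL2, a grainyhead-like factor that opens epithelial enhancers, had 145 and 154 counts, or 17.5 and 15.8 CPM, in MET+ cells. Both MET-KO libraries had 0 counts. Taken against a limit of 3 counts per library, GRHL2 was at least 58.4-fold lower in MET-KO cells (adjusted p = 1.65e-15, edgeR's quasi-likelihood test). GRHL2 (ENSG00000083307) lies on the plus strand of chromosome 8, from 101492432 to 101669726, in a region whose genes were not lower as a group. The median log2 change was 0.28 over the 38 tested genes within 5 Mb and 0.09 over the other 465 of the chromosome.

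OVOL1, a zinc-finger factor of epithelial differentiation, had 117 and 114 counts in MET+ cells, or 14.1 and 11.7 CPM. It had 0 and 4 counts in MET-KO cells, or 0 and 0.368 CPM. The summed MET-KO level was 1.48% of that in MET+ cells, with an exact 95% interval of 0.400% to 3.84% that covers counting error only. The fitted change was -5.99 on the log2 scale (standard error 0.47, adjusted p = 8.06e-13 by edgeR), and it was -5.08 without MET-KO replicate 1 and -9.92 without MET-KO replicate 2, which holds all 4 counts. OVOL1 (ENSG00000172818) lies on chromosome 11, from 65787022 to 65797219, where the 206 tested genes within 5 Mb had a median of -0.14.

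Its paralog OVOL2 stood at 5.44 and 7.80 CPM in MET+ cells against 6.67 and 6.45 CPM in MET-KO cells. The groups overlapped, with both MET-KO values between the MET+ values. The log2 fold change was -0.03 with a 95% interval from -0.56 to 0.51 (adjusted p = 0.946, edgeR's quasi-likelihood test), so a change of up to about that size in either direction was not detectable. OVOL2 (ENSG00000125850, chromosome 20, 17956979 to 18059188, minus strand) overlaps the abundant gene SNX5 on the same strand, whose mean was 209 CPM with MET and 137 CPM without it. On the opposite strand, MGME1 also overlaps OVOL2, with 168 and 212 counts in MET+ cells against 279 and 269 in MET-KO cells. MGME1 had a log2 fold change of 0.31 and was not called (adjusted p = 0.0778 by edgeR). Reads from the shared stretches cannot be assigned to a gene with certainty, and the OVOL2 values are uncertain for that reason.

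**Figure D2:**
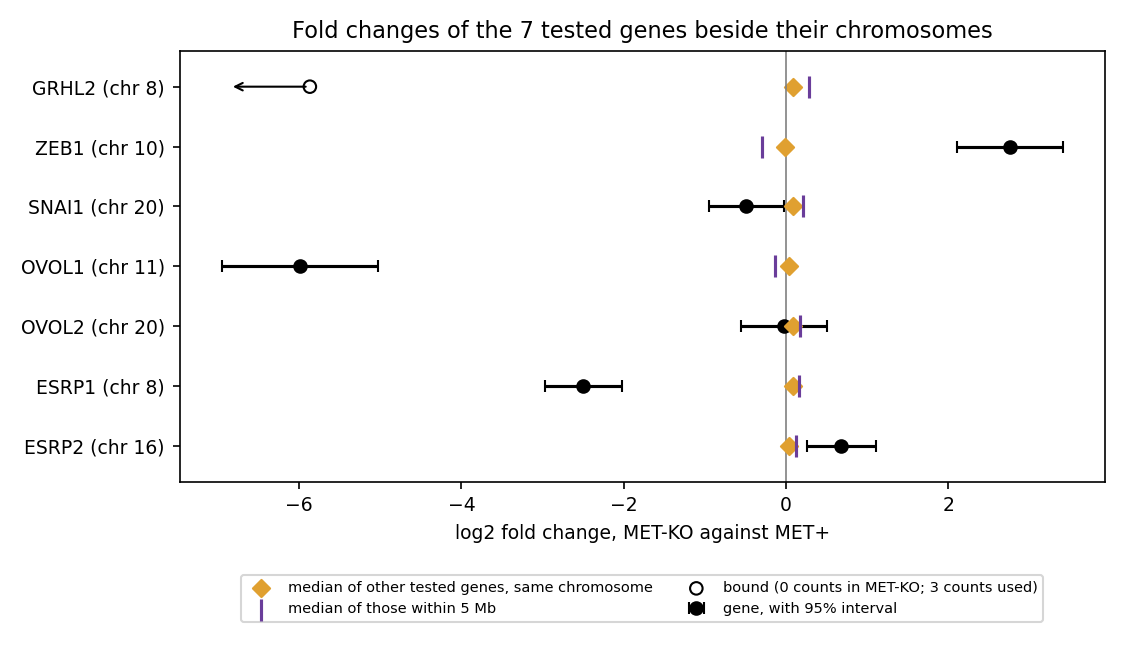
Log2 fold change of the 7 tested genes, MET-KO against MET+, with 95% intervals, beside the median of the other tested genes on the same chromosome (diamonds) and of those within 5 Mb (ticks). The open circle with an arrow is the bound for GRHL2, set by 3 counts per MET-KO library. The medians lie between -0.30 and 0.28, close to 0 against the changes of GRHL2, OVOL1, ESRP1 and ZEB1.

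The paired splicing factors ESRP1 and ESRP2 moved in opposite directions. ESRP1 had 140 and 226 counts in MET+ cells against 32 and 43 in MET-KO cells, or 16.9 and 23.2 CPM against 3.14 and 3.96 CPM. Both MET-KO libraries lay far below both MET+ libraries. The log2 fold change was -2.50 (standard error 0.23, 95% interval -2.97 to -2.03, adjusted p = 4.06e-11, edgeR's quasi-likelihood test). ESRP1 (ENSG00000104413) lies on chromosome 8, from 94641074 to 94707466, and the 44 tested genes within 5 Mb had a median of 0.15. The profiles most like that of ESRP1, by the same measure as for ZEB1, were those of B3GNT3 (distance 0.244), RIOX1 (0.250) and SPHK1 (0.274).

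ESRP2 had 10.3 and 7.39 CPM in MET+ cells against 12.8 and 15.4 CPM in MET-KO cells. Both MET-KO libraries were higher, and the groups did not overlap. The log2 fold change was 0.68 (standard error 0.21, 95% interval 0.26 to 1.11, adjusted p = 0.00648, edgeR's quasi-likelihood test). This call was lost with DESeq2's Wald test (adjusted p = 0.0509), without MET+ replicate 2 (0.111) and without MET-KO replicate 2 (0.0877). ESRP2 (ENSG00000103067, chromosome 16, 68229111 to 68238102, minus strand) overlaps AC020978.5 (68225969 to 68229145) on the same strand. The overlap lies at the 3' end of ESRP2 and the start of AC020978.5. On the opposite strand, NFATC3 ends within ESRP2, with 156 and 135 counts in MET+ cells against 222 and 218 in MET-KO cells. NFATC3 had a log2 fold change of 0.36 and was not called (adjusted p = 0.0715 by edgeR). Reads over these overlaps cannot be assigned with certainty. AC020978.5 had a log2 fold change of 0.69 (adjusted p = 0.0207 by edgeR). AC020978.5 lost its call with DESeq2's Wald test (adjusted p = 0.104) and, in edgeR's test, without MET+ replicate 2 (0.142) or either MET-KO replicate (0.0605 and 0.115). In MET+ cells the mean of ESRP1 was above that of ESRP2, 20.1 against 8.83 CPM, and in MET-KO cells the order was turned, with 3.55 against 14.1 CPM.

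Added up, the 5 EMT factors reached 13.9 and 10.98 CPM in MET+ cells against 18.3 and 17.8 CPM in MET-KO cells. The 5 epithelial regulators reached 64.3 and 65.9 CPM in MET+ cells against 22.6 and 26.2 CPM in MET-KO cells. The regulators were thus 4.63 and 6 times the factors in the MET+ libraries and 1.23 and 1.47 times in the MET-KO libraries. These sums describe the libraries and weight each gene by its abundance.

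The miR-200 microRNAs link both sides, and their seeds are shown because ZEB1 was the EMT factor that rose and its message holds many matches to them. The mature sequences below are from RefSeq (GRCh38.p14), 5′ to 3′, with the seed, bases 2 to 8, in capitals. The family falls into 2 seed groups.
hsa-miR-200b-3p: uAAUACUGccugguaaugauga
hsa-miR-200c-3p: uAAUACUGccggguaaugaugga
hsa-miR-429: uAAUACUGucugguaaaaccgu
hsa-miR-200a-3p: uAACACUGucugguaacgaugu
hsa-miR-141-3p: uAACACUGucugguaaagaugg
In the 2549 bases after the stop codon of the ZEB1 transcript ZEB1-202, read on the plus strand from GRCh38 with GENCODE version 29, the letters that pair with the first seed group occur 6 times and those that pair with the second 3 times. Of 2586 genes with 3' ends of similar length, 26.4% and 29.9% hold at least 1 such match. The share that holds as many as ZEB1 was not counted. ZEB2, which had almost no counts, holds 5 and 4 matches in the 5370 bases after the stop codon of ZEB2-245. The first match of each kind in ZEB1, at bases 369 and 782 after the stop codon, is given with its surroundings and with the paired letters in capitals.
first group: tatcttatCAGTATTatcact
second group: atcagaatCAGTGTTtgtgat
The libraries hold polyadenylated RNA and do not measure mature microRNAs. The host transcript of miR-200c and miR-141, MIR200CHG, had 66 and 95 counts in MET+ cells against 83 and 90 in MET-KO cells. Its groups lay close together, with a log2 fold change of -0.12 (adjusted p = 0.696, edgeR's quasi-likelihood test). MIR34AHG, the host of a microRNA that targets SNAI1, was higher in MET-KO cells, with a log2 fold change of 1.70 (adjusted p = 6.01e-11 by edgeR). The other 8 genes of the list of miR-200, miR-205 and miR-34 genes and hosts had too few counts to be tested.

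Of the 20 other EMT transcription factors listed, 15 were tested, 6 were higher, 8 lower and 1 not called in the knockout, where 54.1% of all tested genes were called. Genes given as rising or falling from here on passed edgeR's adjusted test, and so did the others named with a log2 fold change unless stated. Their median log2 change was -0.42 against 0.01 over all genes, and it changed sign, to 0.64, when no filter on low counts was used. PRRX1, a homeobox factor of mesenchymal cells, rose from a mean of 2.62 to 31.4 CPM, a log2 fold change of 3.56. ID3, an inhibitor of basic helix-loop-helix factors, rose by 2.14 and LEF1, a partner of beta-catenin, by 1.93 on the log2 scale. The ID3 relatives ID1 and ID2 fell, with log2 fold changes of -1.08 and -0.72. TWIST2 had 0 counts in all libraries. SNAI3 went from 4.17 to 2.09 CPM, a log2 fold change of -0.99 (adjusted p = 0.0248, edgeR's quasi-likelihood test). That call was lost with DESeq2's Wald test and when any library was left out.

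All 15 tested genes of the 20 other epithelial regulators listed passed the test, 4 as higher and 11 as lower. Over all tested genes, 54.1% were called, 27.2% as higher and 26.9% as lower. The median log2 change of the list was -1.79. Both relatives of GRHL2 were lower. GRHL3 fell from 12.2 to 2.999 CPM, a log2 fold change of -2.02. GRHL1 went from 10.2 to 6.33 CPM, a log2 fold change of -0.68 that did not pass with DESeq2's Wald test (adjusted p = 0.0762) or without MET-KO replicate 2 (adjusted p = 0.106 in edgeR's test). RBM47, a splicing regulator of epithelial cells like ESRP1, fell from 135 to 14.6 CPM, a log2 fold change of -3.20. The forkhead factors FOXA2 and FOXA1, which open chromatin in endodermal tissues, had log2 fold changes of -5.73 and -5.09, and the liver and gut factor HNF4A had one of -3.43. KLF4 (1.73), CDX2 (1.04) and GATA6 (0.97), all factors of the intestinal lining, and ELF3 (0.65), an epithelial ETS factor, had positive log2 fold changes that passed the test. The list thus held genes that rose beside those that fell.

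The genes that these factors are known to control were then compared. Of 20 junction and polarity genes listed, 19 were tested, 10 were lower, 2 higher and 7 not called. That is 63.2% called, beside 54.1% of all tested genes, and the median log2 change was -0.53. CDH1 fell from a mean of 142 to 77.4 CPM, a log2 fold change of -0.88. EPCAM, which encodes an adhesion protein of the epithelial surface, fell from 438 to 203 CPM, a log2 fold change of -1.11. The polarity gene LLGL2 and the claudin gene CLDN7 both had a log2 fold change of -1.28, and MARVELD3, of tight junctions, had one of -1.13. JUP, which encodes plakoglobin, rose by 0.56 and CXADR, an adhesion receptor, by 1.33. CXADR lies among genes that were also higher, with a median log2 change of 1.62 within 5 Mb. CLDN3, another claudin gene, lay under the level set for naming and was added after its values were seen, with a fall from 10.5 to 3.83 CPM and a log2 fold change of -1.44.

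Of 15 surface and trafficking genes of the GRHL2 program, 13 were tested, 9 were lower, 4 not called and 0 higher by edgeR's test. That is 69.2% called, beside 54.1% of all tested genes, of which 26.9% were lower and 27.2% higher. The calls in the list fell from 9 to 7 with library totals alone and with DESeq2's Wald test. Those settings called 7361 and 5760 of all 13801 genes, so the surplus over all genes depended on the setting. The median log2 change of the list was -0.57. RAB25, a small GTPase of epithelial recycling endosomes, had 852 and 914 counts in MET+ cells against 0 in both MET-KO libraries, at least 345-fold lower. The sodium channel subunit SCNN1A had a log2 fold change of -1.93 and AP1M2, the epithelial form of a clathrin adaptor subunit, one of -1.47. The region around SCNN1A was lower too, with a median of -0.53 within 5 Mb, as were those around ERBB3 (-0.48) and SPINT1 (-0.31). ERBB3 and SPINT1 were also called lower, with log2 fold changes of -1.28 and -0.33. Around the other genes called lower, the medians lay between -0.15 and 0.31. All 13 log2 fold changes lay below 0 in edgeR's fit and in that of DESeq2, so none could be called higher there at any threshold. Scaling by library totals alone put 2 of them above 0, and leaving out MET+ replicate 1 or MET-KO replicate 1 put 1 above 0.

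The promoters of ZEB1 and of CRB3 and RAB25, genes of these lists that fell and that carried E-boxes, are shown so that the letters read by ZEB and SNAI proteins can be seen. Each window runs from 250 bases before to 50 bases after a transcript start in RefSeq (GRCh38.p14), on the plus strand, with the E-boxes CACCTG and its reverse complement CAGGTG in capitals. Of 35116 windows of that length, 20.6% hold at least 1 of them. CRB3, a polarity gene named after its values were seen, went from 36.3 to 16.9 CPM, and its window is chr19:6464021-6464320. That of RAB25 is chr1:156060910-156061209, and the ZEB1 window is 1 of 7, of which 2 hold an E-box, at chr10:31318966-31319265.
CRB3: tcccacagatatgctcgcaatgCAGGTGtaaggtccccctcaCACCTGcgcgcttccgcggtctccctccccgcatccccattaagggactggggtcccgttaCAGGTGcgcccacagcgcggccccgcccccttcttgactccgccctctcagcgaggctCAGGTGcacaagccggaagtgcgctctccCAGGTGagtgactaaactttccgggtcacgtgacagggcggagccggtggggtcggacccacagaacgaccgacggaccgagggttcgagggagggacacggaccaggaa
RAB25: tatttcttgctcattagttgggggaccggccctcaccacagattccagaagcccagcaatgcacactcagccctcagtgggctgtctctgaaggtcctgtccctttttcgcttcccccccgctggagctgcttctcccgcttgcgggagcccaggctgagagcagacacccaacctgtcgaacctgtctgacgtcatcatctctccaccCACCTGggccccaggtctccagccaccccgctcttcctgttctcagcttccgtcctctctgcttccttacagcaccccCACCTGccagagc
ZEB1: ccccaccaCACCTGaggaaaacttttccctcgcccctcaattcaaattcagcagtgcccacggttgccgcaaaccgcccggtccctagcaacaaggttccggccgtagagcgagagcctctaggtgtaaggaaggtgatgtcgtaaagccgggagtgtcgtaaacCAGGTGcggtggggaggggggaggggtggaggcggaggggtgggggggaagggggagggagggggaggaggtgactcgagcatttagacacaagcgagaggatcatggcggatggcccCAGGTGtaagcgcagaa
The CRB3 window holds 5 E-boxes, the RAB25 window 2 and the ZEB1 window 3. None of these 3 windows holds AACCGGTT, a form of the site read by GRHL proteins, which occurs in 0.134% of all windows. Only this exact form was searched for, so other forms of the site may be present. A match describes the letters of the window and is not evidence of binding.

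Mesenchymal genes that EMT factors activate did not move as a block. Of 22 listed, 10 were tested, 5 were higher, 2 lower and 3 not called. The share called was 70%, beside 54.1% of all tested genes. The median log2 change was 0.89, or 2.22 when no filter on low counts was used. VIM, among the lower, and COL3A1, among the higher, reached that filter in 1 group alone, so their direction was fixed by entry. VIM, the mesenchymal intermediate filament gene, had 127 and 202 counts in MET+ cells against 4 and 5 in MET-KO cells. The MET-KO level was 2.34% of the MET+ level (exact 95% counting interval 1.06% to 4.50%), a direction opposite to that of ZEB1. CDH2, which encodes N-cadherin, had a single count in MET-KO replicate 1 and 0 counts in the other libraries. TNC, a matrix glycoprotein, rose by 3.09 and the smooth-muscle actin gene ACTA2 by 1.55 on the log2 scale, while the fibronectin receptor subunit ITGA5 had a log2 fold change of -1.42 in a region with a median of -0.46 within 5 Mb. Fibronectin, FN1, named after its values were seen, went from 1.11 to 6.34 CPM, a log2 fold change of 2.499.

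**Figure D3:**
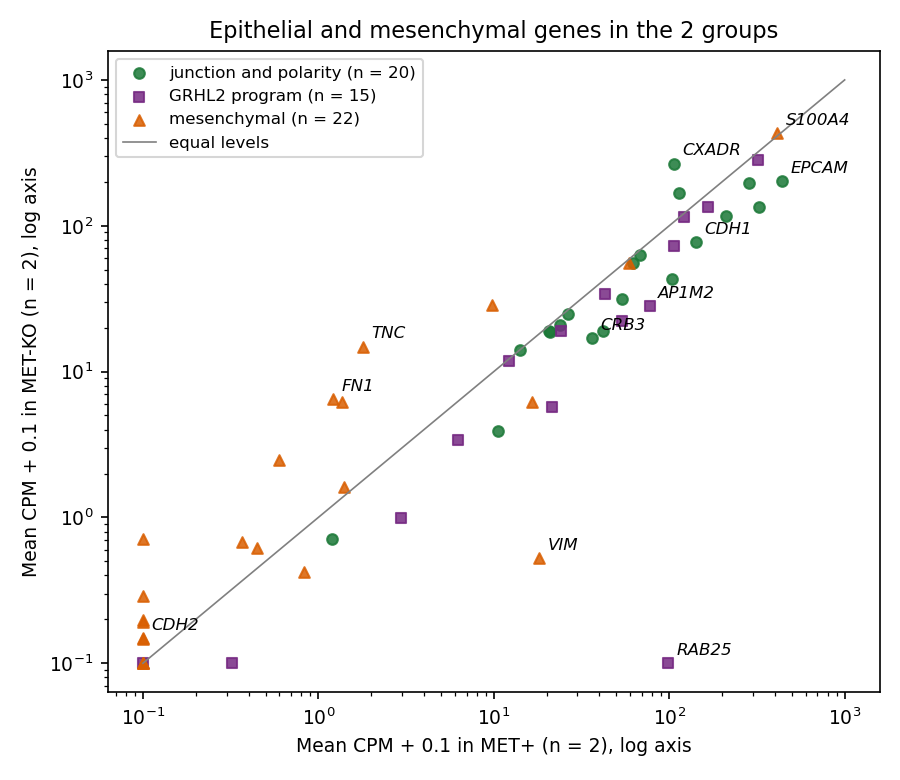
Mean CPM in MET-KO against MET+ cells for junction and polarity genes, surface and trafficking genes of the GRHL2 program and mesenchymal genes, with 0.1 added to each mean so that genes at 0 can be drawn on the log axes. Most junction genes lie on or just under the line of equal levels, RAB25 and VIM lie far under it, and TNC and FN1 lie above it.

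Genes whose transcripts ESRP proteins splice were read for their total level, since reads at the 3' end do not show which exons were used. All 14 listed genes were tested, 4 were higher, 7 lower and 3 not called. This made 78.6% called, beside 54.1% of all tested genes, and the median log2 change was -0.26. FGFR2, a growth factor receptor, rose from 7.40 to 46.2 CPM, a log2 fold change of 2.61, and the hyaluronan receptor CD44 rose by 1.49. The polarity gene SCRIB rose by 0.58. The kinase gene SLK (log2 fold change -1.69), TCF7L2, a transcription factor gene of the WNT pathway (-1.22), and EPB41L5 (-0.91) fell. Of 8 splicing factors active in mesenchymal cells, 2 were higher, 4 lower and 2 not called, or 75% called, and the median log2 change was -0.24. MBNL2 rose by 2.74 and RBFOX2 by 0.51, whereas QKI (-1.62), MBNL1 (-1.28) and PTBP1 (-0.49) fell. The genes within 5 Mb of QKI had a median of -0.53.

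Of 20 corepressors and chromatin partners, 3 were higher, 8 lower and 9 not called, and the median log2 change was -0.13. The share called was 55%, close to the 54.1% of all tested genes. The gene of KDM1A, a histone demethylase that binds the SNAI1 protein, and that of its partner RCOR1 had log2 fold changes of -1.88 and -1.52, and SIN3A, a scaffold of deacetylase complexes, had one of -0.66. Genes within 5 Mb were lower as well, with a median of -0.75 around RCOR1 and -0.44 around SIN3A. The deacetylase gene HDAC2 rose by 0.90 and PARP1 by 0.88. EHMT2, a histone methyltransferase gene, had a log2 fold change of 0.34 that lost its call with DESeq2's Wald test, with no filter and without either MET-KO library or MET+ replicate 2. Of 20 listed genes for turnover and kinase control of SNAI and ZEB proteins, 17 were tested, 5 were higher, 6 lower and 6 not called. This made 64.7% called, and the median log2 change was -0.17. The calls in that list numbered 11 with all libraries and 7 without MET+ replicate 1 or without MET-KO replicate 1. The kinase gene LATS2 rose by 1.69, and the ubiquitin ligase genes FBXO11 (-0.998), BTRC (-0.98) and SIAH2 (-0.84) fell. USP11 and FBXW7 had log2 fold changes of 0.39 and 0.32, and both lost their call without MET+ replicate 1, as USP11 did without MET-KO replicate 1.

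Of 18 TGF-beta, SMAD and WNT inputs to the EMT factors, 17 were tested, 6 were higher, 7 lower and 4 not called. This made 76.5% called, beside 54.1% of all tested genes, and the median log2 change was 0.02. WNT5A, a ligand of noncanonical WNT signalling, had 10 and 30 counts in MET+ cells against 2130 and 2438 in MET-KO cells, a log2 fold change of 6.60. TGFB2, a TGF-beta ligand, had 4 and 0 counts in MET+ cells against 167 and 170 in MET-KO cells. Both ligands were far higher in each MET-KO library than in any MET+ library. TGFB1, another TGF-beta ligand, fell, with a log2 fold change of -0.86, and TGFBR2, a receptor named after its values were seen, had one of -2.48. AXIN2, a target of beta-catenin, rose by 1.998. BAMBI, a decoy receptor, had a log2 fold change of -0.81, and APC, which restrains beta-catenin, one of -0.46 that lost its call with library totals alone, with DESeq2's Wald test and without MET-KO replicate 1. The APC value was close to the median of the other tested genes of chromosome 5, -0.43.

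**Figure D4:**
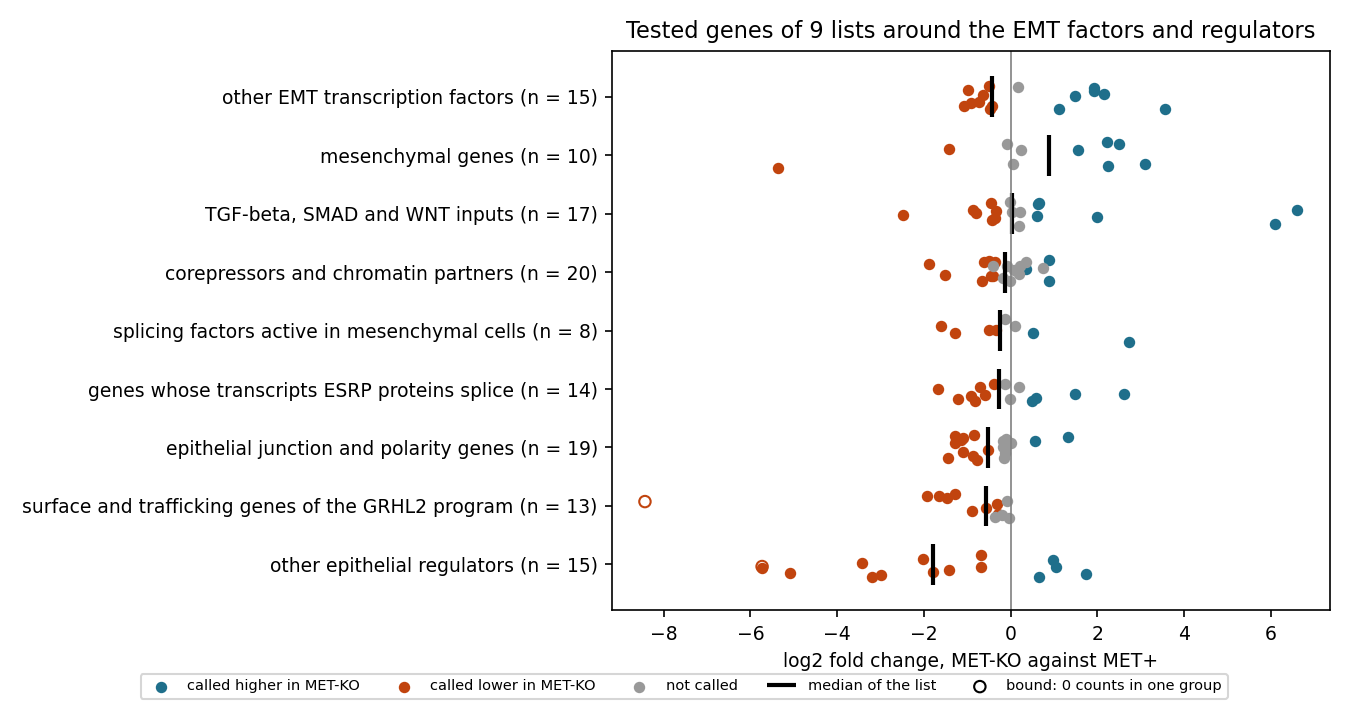
Log2 fold change, MET-KO against MET+, of the tested genes of 9 lists, coloured by whether edgeR's adjusted test called them, with a black line at the median of each list. Open circles are bounds for genes with 0 counts in one group. The other epithelial regulators have the lowest median, -1.79, and every list but that of the GRHL2 program has called genes on both sides of 0.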

How the data were processed

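RNA from 2 MET+ and 2 MET-KO libraries was made into QuantSeq 3' libraries. The authors deposited whole read counts per gene without normalization, for 58825 genes and 99 spike-in rows, all at 0. The submitters' notes name cutadapt 1.16, STAR 2.5.4a, featureCounts 1.6.2, DESeq2 1.18.1 and GRCh38. The annotation and strand setting of counting are not given in the sources used here. Names and positions are from GENCODE version 29, which held 58552 of the IDs.

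In R 4.3.3, edgeR 4.0.16 (filterByExpr by group, TMM, quasi-likelihood test, condition only, Benjamini-Hochberg over 13801 genes, threshold 0.05) was applied, and every adjusted p is from this test unless DESeq2 is named. CPM are TMM-scaled. A standard error is the size of the log2 fold change divided by the square root of F. The labels and the study call the libraries of a group biological replicates, without saying how they were separated, and p-values measure the spread between them. An exact permutation of 2 against 2 cannot go below p = 0.333 and was not used. A group at 0 was set to 3 counts per library for bounds. The counting intervals (OVOL1, VIM) and the limits cover counting error only, whereas intervals of log2 fold changes include the spread between libraries. Named genes are the 10 listed, MET, and in each list up to 3 called genes per direction whose mean log2 CPM reached 3, besides CDH1, EPCAM, VIM, CDH2, GRHL1, GRHL3, ELF3, RBM47, TWIST2, SNAI3 and CDX2. Other names were added after their values were seen. Some genes that the rule or the lists name are not reported here. The members and lists, written from general knowledge, were chosen with earlier results of these data known.

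Same-numbered libraries did not deviate together (correlation -0.0216). Replicates differed beyond sampling noise (chi-square per degree of freedom 5.45 and 4.86). Alternatives were DESeq2 size factors, library totals alone, no filter, DESeq2 1.42.0 with its Wald test, the replicate block and leaving out each library. On simulated data, edgeR recovered 175 of 193 changed genes with 3 false calls. The simulation changed a far smaller share of genes than the 54.1% called here and gave every gene the same spread. It therefore does not give the error rate in these data. Sequences were searched in Python 3.11.15, and 2 of the 10 genes had promoter windows in the table used. Figures were drawn with matplotlib 3.10.9.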

Additional observations from a re-analysis of the deposited data

How the results depend on the processing

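Of the 10 genes, 5 passed the test, and the number was 5 with DESeq2 size factors, library totals alone, no filter and the replicate block, 4 with DESeq2's Wald test, and 4 to 6 when each library was left out. ZEB1, GRHL2, OVOL1 and ESRP1 passed under all 9 alternatives, with log2 fold changes of 2.63 to 2.92 for ZEB1 and -2.70 to -2.25 for ESRP1. OVOL2 passed under none, with log2 fold changes from -0.25 to 0.26. Of 13801 genes tested, 7467 were called, 5760 with DESeq2's Wald test, and 6289 to 7083 of 14196 to 14426 tested genes were called when each library was left out. The replicate block gave 7055 and changed no call of the 10 genes, and the numbers of the libraries name them without pairing them. Scaling by library totals alone moved the median of all genes from 0.01 to 0.11 and the share of higher genes among those called from 50.3% to 59.2%. Depth limits ZEB2, SNAI2 and TWIST1, for which no test could be made.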
